A study of Rattus norvegicus with 16 samples.

Results

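Immediate early genes are the first genes that a cell transcribes after a stimulus, before any new protein has been made. In neurons of the hippocampus, synaptic activity and calcium entry start them through the transcription factors CREB, SRF and MEF2, and their RNA lasts only for a short time. Most of the proteins are themselves transcription factors. Fos, Fosb and Junb are subunits of AP-1 complexes, and Egr1 to Egr4 are zinc finger proteins. Nr4a1 is an orphan nuclear receptor and Npas4 is a neuronal factor that responds to calcium. Arc differs from these, because its product acts at the synapse, where it drives the removal of AMPA receptors.

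The members were the 10 genes named here, taken by symbol from each table of values, with the row of highest mean where a symbol had several. Rows for 9 of the 10 were found in each table, among 16405 single gene symbols for CA1 and 16395 for white blood cells, and each symbol had 1 row. Expression of Fosb was not analysed here. All animals were male Sprague-Dawley rats, in which the brain had received a fluid percussion injury (TBI) or which had undergone sham surgery. Every rat took a learning test 1 week after surgery and was then decapitated, and the sources used here do not give the time between test and death. Libraries of RNA with a poly-A tail were made from CA1, a field of the hippocampus (4 sham and 4 TBI libraries) and from white blood cells (4 sham and 4 TBI libraries), 16 libraries in all. Nothing in the labels says that libraries of equal number come from the same rat. The tests took the libraries as independent, and p-values measure the spread between these libraries only.

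The values are FPKM, fragment counts scaled by transcript length and by library size, so levels can be set side by side between genes. The 2 tissues were normalized in separate tables, and levels in one are compared with the other by description only. The tables hold no fragment counts. From the commonest ratio of very low values, 1 fragment was worth 1.01 to 1.17 times as much in the other CA1 libraries as in sham 1, and 0.729 to 1.25 times as much among the white blood cell libraries, so depths within a tissue were of the same order. General markers of brain and blood matched the labels. In CA1 the neuronal kinase Camk2a stood at 1239 to 1935 FPKM, and in white blood cells the T cell receptor chain Cd3e stood at 101 to 160 FPKM. Of the pyramidal neuron markers, Wfs1 stood at 74.2 to 127 FPKM in CA1 and Fibcd1 was listed at 0 in all 8 libraries. Of the dentate granule cell markers, C1ql2 stood there at 62.4 to 151 FPKM and Prox1 at 9.37 to 18.5, while Tdo2 was at most 0.0563. How much RNA came from other hippocampal fields was not tested. The blood libraries also held much RNA of red cells and platelets, with Alas2 at 3201 to 12172 FPKM and Pf4 at 1750 to 7300. Both had lower means in TBI than in sham blood. In RNA from whole tissue, fewer cells of a type and less RNA per cell cannot be told apart.

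Over the sham and injured libraries of CA1, Egr1 was the most abundant member, at a mean of 40.8 FPKM over 8 libraries, followed by Arc at 34.5, Junb at 33.1, Egr3 at 32.1, Nr4a1 at 20.7, Egr4 at 10.6, Fos at 7.96, Npas4 at 1.90 and Egr2 at 1.54. Arc, Junb and Egr3 could not be ordered, since each stood above the next in 5 of 8 libraries. The steps from Egr3 to Nr4a1, from Nr4a1 to Egr4 and from Fos to Npas4 held in 8 of 8 libraries, and the others in 7 of 8. White blood cells had another order. Junb led by far, at a mean of 242 FPKM, above every value of any other member, and was followed by Fos at 39.2, Nr4a1 at 30.4, Egr1 at 10.4 and Egr3 at 2.83. Fos and Nr4a1 could not be ordered there, with Fos the higher in 4 of 8 libraries.

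Npas4, Arc, Egr2 and Egr4 were below 1 FPKM in every blood library, each value with the authors' status OK. Npas4 was listed at 0 in all 8 white blood cell libraries, against 0.791 to 4.43 FPKM in CA1. Arc stood at 0.196 to 0.797 FPKM in blood and at 23.6 to 52.5 in CA1, and Egr2 at 0.199 to 0.452 in blood and 0.470 to 4.39 in CA1. Egr4 was listed at 0 in 5 blood libraries and at 0.0421 FPKM in sham 3, 0.0319 in TBI 2 and 0.108 in TBI 3. After each was divided by the worth of 1 fragment in its library, these 3 values stood in the proportions 1, 1.00 and 2.96, which is close to whole numbers. Of the 9 members, 6 had higher values in all CA1 libraries than in any blood library, Fos and Junb had higher values in all blood libraries, and the ranges of Nr4a1 overlapped (14.0 to 29.6 FPKM in CA1, 18.2 to 50.6 in blood).

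**Figure D1:**
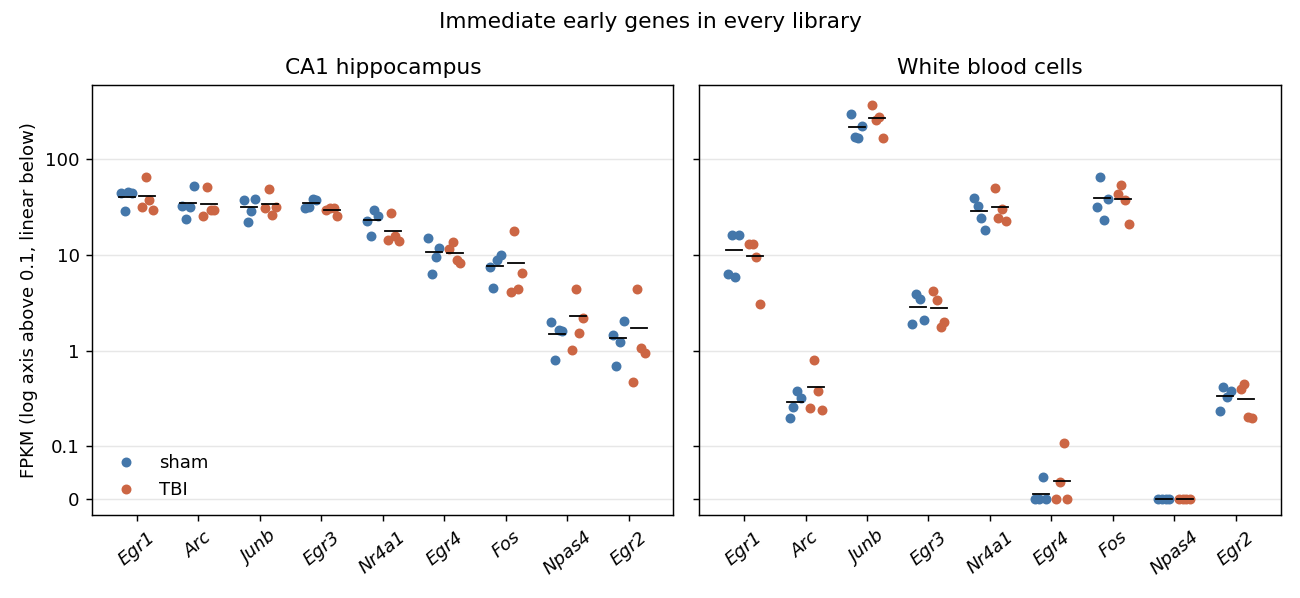
FPKM of the 9 immediate early genes in every library of CA1 (left) and white blood cells (right), on an axis that is logarithmic above 0.1 and linear below it; each point is 1 library (n = 4 per group) and each bar is a group mean. Arc, Egr4 and Npas4 are at or below 0.797 FPKM in blood, while Junb reaches 368, and in CA1 the groups overlap for every gene but Egr3.

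CA1 1 week after injury was compared with sham to ask whether the injury left a change in these genes. None of the 9 members passed the test, made by limma on log2(FPKM + 0.5) over 14637 rows with Benjamini-Hochberg adjustment. Only 0.00683% of all rows passed (1 row). At an unadjusted p under 0.05 there was 1 member, Egr3, where 5.14% of all rows lay. The fold changes were below 0 in 5 members and above 0 in 4, with a median of -0.04, against a median of -0.01 over all rows, of which 53.3% were below 0.

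Egr3 was the only member whose groups did not overlap. It stood at 31.2, 32.0, 38.6 and 37.4 FPKM in the sham libraries and at 29.8, 30.6, 31.0 and 25.7 in the TBI libraries, numbered from 1 to 4. The gap between the groups was narrow, from 31.0 in TBI 3 to 31.2 in sham 1. The mean was 34.8 ± 3.73 FPKM over the sham libraries and 29.3 ± 2.42 over the injured ones (SD, n = 4 each), a log2 difference of -0.24 ± 0.09 (SE; 95% interval -0.45 to -0.04), which did not pass (limma adjusted p = 0.891). Groups that do not overlap in this direction were found in 1.6% of all rows. Egr3 is known as a target of Egr1 and calcium signals and is needed for some forms of hippocampal memory.

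The other EGR genes overlapped throughout. Egr1, whose protein is needed for lasting synaptic potentiation, stood at 44.2, 29.0, 45.0 and 44.3 FPKM in sham and at 31.5, 64.8, 37.8 and 29.9 in TBI. Egr2 stood at 1.46, 0.695, 1.23 and 2.03 FPKM in sham and at 0.470, 4.39, 1.07 and 0.936 in TBI, so the highest and the lowest of the 8 were both injured. Egr4 stood at 15.2, 6.30, 9.53 and 11.8 FPKM in sham and at 11.6, 13.7, 8.79 and 8.24 in TBI. In Egr1 and Egr4 the sham 2 library was the lowest of all 8. The log2 differences were -0.04 for Egr1 (95% interval -0.61 to 0.54), 0.01 for Egr2 (-1.06 to 1.08) and 0.02 for Egr4 (-0.57 to 0.61).

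The AP-1 subunits showed the same kind of spread. Fos stood at 7.52, 4.49, 8.78 and 9.97 FPKM in sham and at 4.05, 18.0, 4.37 and 6.47 in TBI. Junb stood at 37.8, 22.3, 28.7 and 38.1 FPKM in sham and at 30.9, 48.8, 26.4 and 31.9 in TBI. In both genes TBI 2 was the highest library, while the other TBI libraries lay within or below the sham range. The log2 difference of Fos was -0.11 ± 0.44 (SE; 95% interval -1.12 to 0.90) and that of Junb 0.11 ± 0.22 (-0.39 to 0.62).

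On the log2 scale Nr4a1 had the lowest difference among members and Npas4 the highest, and neither passed. Nr4a1 stood at 22.4, 15.6, 29.6 and 25.9 FPKM in sham and at 14.4, 27.7, 15.9 and 14.0 in TBI (log2 -0.39 ± 0.25 SE, 95% interval -0.96 to 0.19, limma adjusted p = 0.891). Of the TBI libraries, 2 lay below every sham library, and TBI 3 lay just above the lowest, sham 2. Npas4 stood at 2.0, 0.791, 1.63 and 1.59 FPKM in sham and at 1.02, 4.43, 1.54 and 2.21 in TBI (log2 0.38 ± 0.36 SE, 95% interval -0.43 to 1.20, limma adjusted p = 0.894). Arc stood at 32.2, 23.6, 31.8 and 52.5 FPKM in sham and at 25.8, 50.8, 29.6 and 29.6 in TBI (log2 -0.04 ± 0.27 SE, 95% interval -0.65 to 0.58). Its highest values were 1 sham and 1 TBI library. In RefSeq's rat annotation (GRCr8) a long noncoding RNA overlaps Arc, and the sources used here do not say whether strand was kept, so Arc may hold fragments of that RNA.

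Most of these differences moved when TBI 2 or sham 2 was left out. TBI 2 was the highest TBI library in 8 of 9 members and the highest of all 8 libraries in 5. Sham 2 was the lowest sham library in 8 of 9. Egr3 was the exception in both, and leaving out either library necessarily lowers the difference of the other 8. Without TBI 2 the median over the members was -0.27, with Fos at -0.56, Nr4a1 at -0.61, Arc at -0.24 and Egr1 at -0.28, while Junb (-0.064), Egr2 (-0.47) and Egr4 (-0.11) changed sign and Npas4 came to 0.063. Without sham 2 the median was -0.20, with Fos at -0.33, Nr4a1 at -0.56, Arc at -0.20 and Egr1 at -0.19, and the same 3 genes changed sign (Junb -0.042, Egr2 -0.18, Egr4 -0.20). None of the 9 passed without TBI 2 (limma adjusted p = 0.985 to 0.989) or without sham 2 (adjusted p = 0.999). Over the omission of each library in turn the median over the members ran from -0.27 to 0.090. Fos then ran from -0.56 to 0.12, Egr2 from -0.47 to 0.31 and Arc from -0.24 to 0.18. Egr3 ran from -0.29 to -0.18 and Nr4a1 from -0.61 to -0.26.

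**Figure D2:**
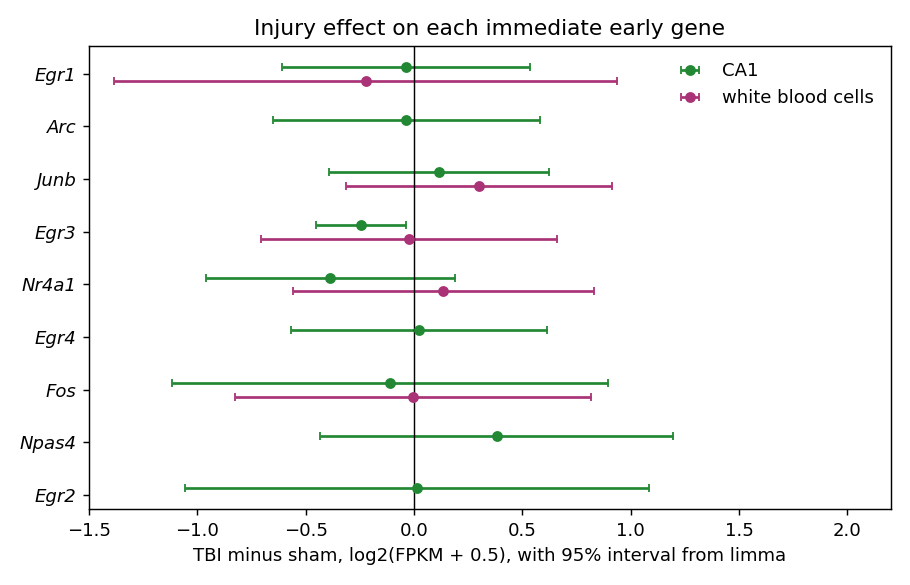
Difference between TBI and sham of each gene on the log2(FPKM + 0.5) scale, with its 95% interval from limma, in CA1 (9 genes) and in white blood cells (the 5 genes that passed the filter), n = 4 libraries per group. Only the interval of Egr3 in CA1 (-0.45 to -0.04) lies on one side of 0, before adjustment over all rows.

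Within a group the members varied more than most genes of CA1. The SD between libraries of a group had a median of 0.43 (log2) over the 9 members, against 0.14 over all rows tested. Fos (0.74) and Egr2 (0.78) were at the 97.5th and 97.7th percentile of all rows, Npas4 (0.59) at the 96.2nd, and Arc, Egr4, Nr4a1, Egr1 and Junb between the 90.9th and the 93.8th. Egr3 stood apart from these at 0.14, the 50.6th percentile. Among rows of like mean the percentiles were 92.9 to 98.2 for the 8 and 65.3 for Egr3.

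The same 8 genes also varied together. With group means removed, Pearson's r over the 8 CA1 libraries was above 0.5 in all 28 pairs of members that leave out Egr3, with a median of 0.84 and a range from 0.56 (Egr2 with Egr4) to 0.96 (Egr1 with Nr4a1). In the 8 pairs with Egr3 the median was 0.31, and r ran from 0.09 with Npas4 to 0.63 with Nr4a1. The libraries share 1 normalization, and these values are a description over 8 points. The share of other gene pairs with r above 0.5 was not counted. Without TBI 2 the median over the 28 pairs was 0.65, with a range from 0.43 to 0.90 and 24 pairs above 0.5. Without sham 2 it was 0.79, with a range from 0.35 to 0.94 and 23 pairs above 0.5.

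**Figure D3:**
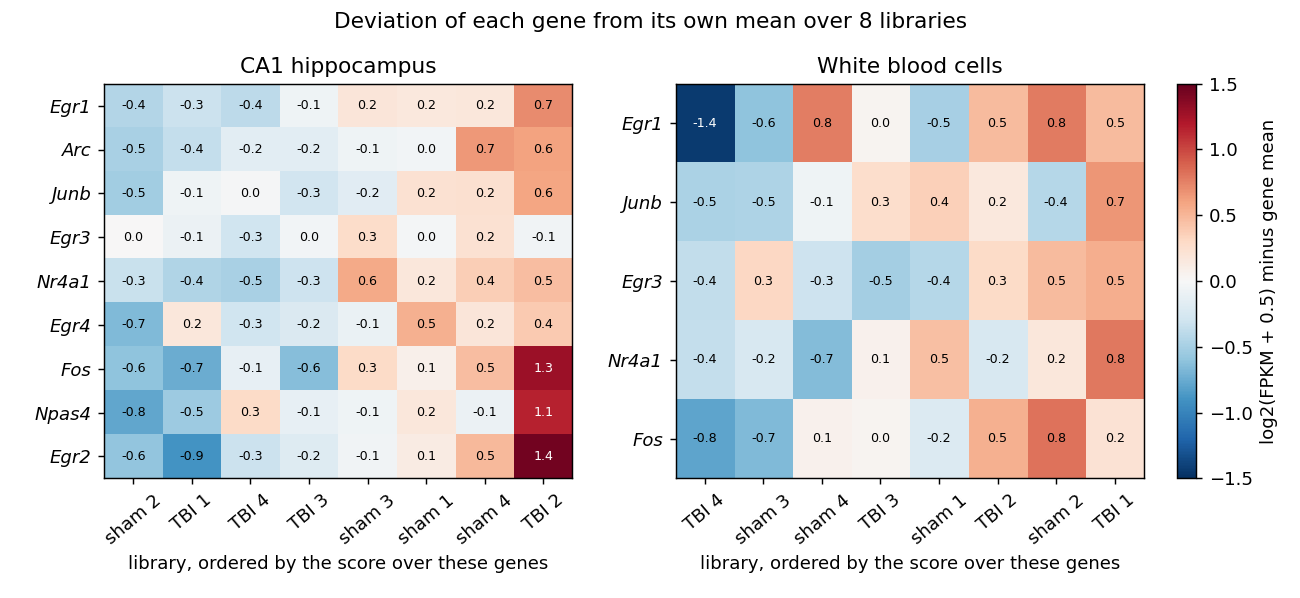
Deviation of each gene from its own mean over 8 libraries (colour and printed value, log2(FPKM + 0.5)) in CA1 and in white blood cells, libraries ordered from left to right by the mean standardised value over these genes. In CA1 most rows go from low in sham 2 to high in TBI 2, and the row of Egr3 does not; in blood the rows of Fos and Egr1 are alike and those of Junb and Nr4a1 follow another order.

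Sequences before the gene start, where CREB and SRF act, were searched for known motifs. Windows of 250 bases before the start, from RefSeq on the build GRCr8, were matched for 7 of the 10 symbols (Egr1, Egr2, Egr4, Fosb, Junb, Npas4 and Nr4a1); the study's own values were made on the build rn5. The motifs sought were the CRE in full (TGACGTCA), its shorter form TGACG, the CArG box that SRF binds, the AP-1 site TGAGTCA, the EGR sites GCGTGGGCG and GCGGGGGCG, and the NR4A site AAAGGTCA, each on both strands; the full CRE contains the shorter form. TGACG was found in 5 of the 7 windows (Egr1, Egr2, Egr4, Junb and Nr4a1), against 18.2% of 33469 windows of the same length. The windows of Fosb and Npas4 held no match to any motif sought. In that of Npas4 the letters TATATAA of a TATA box lie far before the annotated start, so part of the window may lie inside the gene. Whether RefSeq's start of either gene is the one used in CA1 was not tested. The missing matches therefore say little about these promoters. A CArG box was found in Egr1 (a pair) and Egr2, against 1.5% of all windows, and GCGGGGGCG in Nr4a1, against 2.45%. The full CRE, the AP-1 site, GCGTGGGCG and AAAGGTCA had no match in the 7 windows, against 1.59, 4.05, 0.478 and 1.24% of all windows. A match says only that the letters are there. The windows of Egr2, Egr4, Nr4a1 and Junb are shown because they hold such matches, in capitals, in genes of low (Egr2), middle and high level that varied together. On GRCr8 they lie at chr20:21054442-21054691 (Egr2, minus strand), chr4:119607818-119608067 (Egr4, minus strand), chr7:134259888-134260137 (Nr4a1, plus strand) and chr19:40080876-40081125 (Junb, plus strand), and each is written 5′ to 3′ towards its gene.
Egr2: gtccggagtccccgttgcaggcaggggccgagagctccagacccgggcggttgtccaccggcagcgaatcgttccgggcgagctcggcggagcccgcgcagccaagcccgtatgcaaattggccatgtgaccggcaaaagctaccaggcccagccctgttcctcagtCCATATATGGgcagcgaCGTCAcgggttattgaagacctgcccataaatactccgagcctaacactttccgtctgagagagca
Egr4: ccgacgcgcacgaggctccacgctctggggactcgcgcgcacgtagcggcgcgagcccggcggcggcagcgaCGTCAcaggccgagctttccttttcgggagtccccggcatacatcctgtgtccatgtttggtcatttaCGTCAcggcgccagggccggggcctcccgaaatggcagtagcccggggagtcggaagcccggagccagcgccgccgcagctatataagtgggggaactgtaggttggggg
Nr4a1: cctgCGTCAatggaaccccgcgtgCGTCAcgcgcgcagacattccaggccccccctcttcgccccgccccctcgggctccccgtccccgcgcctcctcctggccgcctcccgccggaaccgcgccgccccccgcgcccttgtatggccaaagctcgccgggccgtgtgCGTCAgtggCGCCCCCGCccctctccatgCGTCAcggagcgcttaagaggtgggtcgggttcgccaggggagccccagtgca
Junb: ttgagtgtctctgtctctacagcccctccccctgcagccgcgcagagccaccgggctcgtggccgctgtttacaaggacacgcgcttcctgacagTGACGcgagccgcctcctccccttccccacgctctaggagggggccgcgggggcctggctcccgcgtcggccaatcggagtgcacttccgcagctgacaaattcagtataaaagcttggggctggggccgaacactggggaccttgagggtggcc
In Egr2 the CArG box ends at base -74 from the start and the short CRE, which reads on the other strand, begins at -66. The window of Nr4a1 held 4 copies of the short CRE on the other strand, that of Egr4 held 2, and that of Junb held 1 on the strand shown.

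The genes most like the members in CA1 were sought among 7745 other genes of at least 5 FPKM, by Pearson's r over the 8 libraries with a score, the mean standardised value of the 9 members in each library. The score ran from -1.03 in sham 2 and -0.69 in TBI 1 to 0.72 in sham 4 and 1.40 in TBI 2. The nearest was Nr1d1 (r = 0.94), the clock repressor REV-ERB alpha, at 31.0 FPKM in sham 2 and 41.9 in TBI 2. Dusp1 (r = 0.87), a phosphatase that switches off MAP kinases and is itself an immediate early gene, ran from 13.1 FPKM in TBI 1 to 33.7 in TBI 2. The others were Pno1 (0.94), the cell cycle cyclin Ccnd1 (0.90), Hint3 (0.89), Stk40 (0.89), Gtdc1 (0.88) and the checkpoint gene Rad17 (0.87), which moved over narrower ranges. With group means removed Nr1d1 ranked 6 and Pno1 4 (r = 0.94 for both). The other named genes then ranked lower, from 15 for Ccnd1 and 19 for Dusp1 to 33 for Rad17. The median r of all 7745 genes was 0.00, and 33 of them exceeded 0.8 while 24 lay below -0.8.

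Markers of other cells moved with the score as well. All 7 tested markers of the choroid plexus, a tissue of the ventricle next to CA1, had r below -0.5 with it, and their summed level ran from 5.45 to 1301 FPKM in sham and from 166 to 2738 in TBI, with Otx2 listed at 0. Both tested red cell markers, Alas2 and Hbb-b1, had r of 0.61 and 0.64, and the list summed to 14.98 to 21.2 FPKM in sham and 18.1 to 34.8 in TBI. Of 6 interneuron markers 3 had r above 0.5, Pvalb the highest at 0.85 (92.1 FPKM in sham 2, 126 in TBI 2). Of 10 glial markers 2 did, Aif1 (0.66) and P2ry12 (0.65). The share of all genes beyond 0.5 in either direction was not counted. Pyramidal and general neuron markers had a median r of -0.04. Dentate granule cell markers had a median r of -0.03. Between the groups, all 6 endothelial markers and 7 of 8 neuron markers were lower in TBI and all 7 choroid plexus markers higher, and none of them passed. Over all rows 53.3% were lower. At an unadjusted p under 0.05, 3 endothelial markers and 1 neuron marker were lower, against 2.6% of all rows, and no choroid plexus marker was at that p. The part of these cells in the members' values was not tested.

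Of 40 other genes that activity induces quickly, 37 were tested in CA1, and none passed (limma). Their median difference was -0.18, with 27 lower and 10 higher, where 53.3% of all rows were lower. At an unadjusted p under 0.05, 9 were lower and 0 higher, against 2.6% of all rows that were lower at that p. The list was chosen with earlier results of these data known, so these counts are a description and not a test of the list. The 4 with the smallest p were Dusp6, a phosphatase that acts on ERK (23.1 ± 1.88 to 18.5 ± 1.21 FPKM, SD, n = 4; log2 -0.31), the synaptic scaffold Homer1 (24.8 ± 0.991 to 21.3 ± 1.41, -0.21), the repressor Nfil3 (4.87 ± 0.599 to 3.79 ± 0.284, -0.32) and the zinc finger factor Klf10 (12.9 ± 2.33 to 9.65 ± 0.658, -0.38), each with limma adjusted p = 0.891. The groups of Dusp6, Homer1 and Nfil3 did not overlap, as in 1.6% of all rows in this direction. For the 4 genes, r with the members' score was 0.09 for Dusp6, 0.16 for Homer1, 0.44 for Nfil3 and 0.52 for Klf10. That of Btg2 and Ier2, chosen after their values were seen, was 0.83 and 0.82. The count of 9 fell to 4 without sham 4, and to 5 without TBI 3 or TBI 4, and was 10 without TBI 2 or sham 1.

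**Figure D4:**
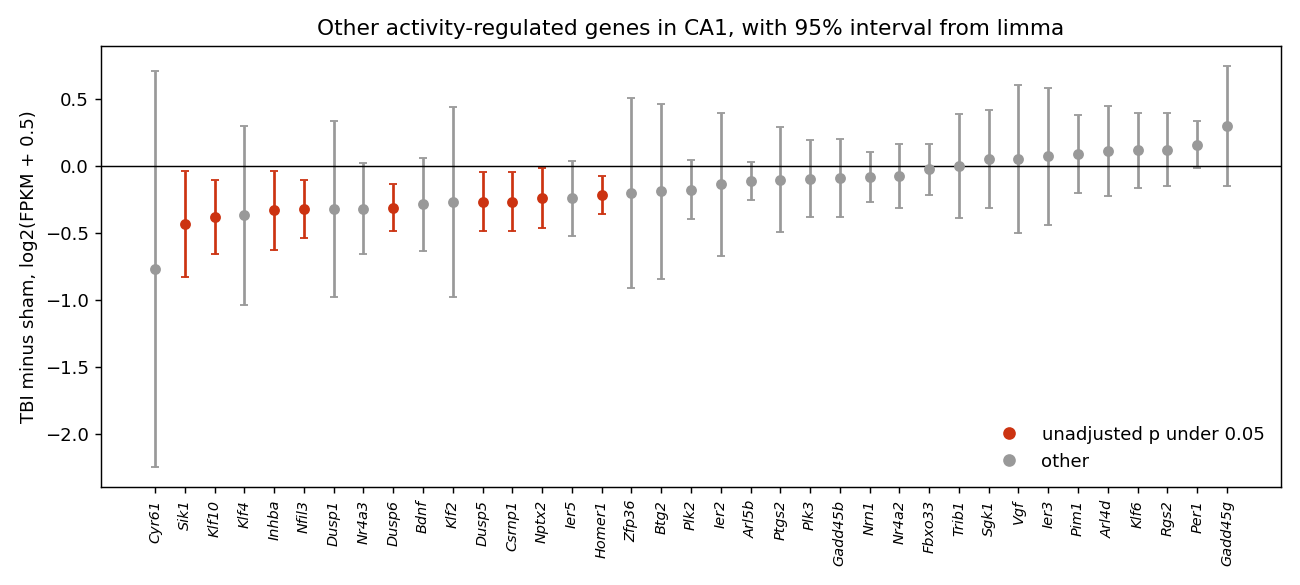
Difference between TBI and sham in CA1 for the 37 other activity-induced genes that were tested, on the log2(FPKM + 0.5) scale with 95% intervals from limma (n = 4 libraries per group), ordered by size. The 9 red points are at an unadjusted p under 0.05 and all lie below 0, and no gene passed after adjustment over all rows. The list was chosen with earlier results of these data known.

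No partner or regulator of the members passed in CA1. Of 9 other AP-1 subunits 4 were tested, with a median of 0.06. Fosl2 had a mean of 10.96 ± 2.10 FPKM (SD) in sham libraries and 9.47 ± 1.14 in injured ones, Fosl1 of 14.6 and 15.2, Jun of 45.0 ± 7.25 and 47.2 ± 9.45 and Jund of 68.1 ± 27.3 and 68.0 ± 11.4. Of 30 tested kinases, transcription factors and coactivators that act on immediate early promoters, 20 were lower and 10 higher (median -0.09). Over all rows 53.3% were lower. At an unadjusted p under 0.05, 2 of the 30 were lower, against 2.6% of all rows. The 2 were the SRF partner Elk3 (6.05 ± 0.395 to 4.40 ± 0.290 FPKM, log2 -0.42, limma adjusted p = 0.710) and the calcineurin subunit Ppp3ca (392 ± 41.2 to 319 ± 40.5 FPKM, -0.30). The groups of Elk3 were apart, as in 1.6% of all rows in this direction. Nfatc2 stood at 3.19 and 3.94 FPKM and Mef2d at 49.7 and 45.3. Among 7 tested corepressors and coregulators none reached an unadjusted p under 0.05; among those nearest were Nab2, an inhibitor of EGR proteins (12.3 and 11.2 FPKM), Jdp2 (18.0 and 17.2) and Hdac3 (35.5 and 36.4).

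In white blood cells the same contrast was made over 13413 rows, and none of the 5 members tested passed (limma); no row passed, 0% of the total, and 20.3% of rows were at an unadjusted p under 0.05, where no member was. Sham and injured libraries were apart in 14.2% of rows and in none of the 5 members. Arc, Egr2, Egr4 and Npas4 fell below the filter of a mean of at least 1 FPKM and have no test. Junb stood at 299, 173, 168 and 222 FPKM in sham and at 368, 259, 279 and 167 in TBI. The highest and the lowest were both injured, and the log2 difference was 0.30 ± 0.27 (SE; 95% interval -0.31 to 0.91, limma adjusted p = 0.570), or 0.69 after quantile normalization (adjusted p = 0.284).

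Fos stood at 32.0, 65.2, 23.0 and 38.5 FPKM in the sham blood and at 43.0, 53.3, 37.8 and 21.0 in the TBI blood (log2 -0.01 ± 0.36 SE, 95% interval -0.83 to 0.82). Egr1 stood at 6.40, 16.2, 5.89 and 16.1 FPKM in sham and at 12.99, 13.1, 9.52 and 3.09 in TBI (-0.22 ± 0.51 SE, -1.38 to 0.94). The TBI 4 library was the lowest of the 8 in both genes and sham 2 the highest. Egr3 stood at 1.88, 3.93, 3.48 and 2.08 FPKM in sham and at 4.16, 3.39, 1.75 and 1.98 in TBI (-0.02 ± 0.30 SE), without the gap between groups seen in CA1. Nr4a1, which T cell receptor signals induce in lymphocytes, stood at 39.9, 32.6, 24.4 and 18.2 FPKM in sham and at 50.6, 24.5, 30.3 and 22.5 in TBI (0.14 ± 0.30 SE).

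Whether the injury acted differently on the tissues was tested by the interaction term of 1 limma model over 7570 genes. None of the 5 members passed, where 0.41% of genes did (31). The model took the libraries as independent, although 16 of 16 correlated best with their own number across tissues. With equal numbers as a replicate block, calls were 0 higher and 3 lower, and no member was called. The effect in blood minus that in CA1 was 0.52 ± 0.41 (SE) for Nr4a1 (limma adjusted p = 0.522), 0.22 ± 0.32 for Egr3 (adjusted p = 0.759), 0.19 for Junb, 0.10 for Fos and -0.19 for Egr1. For Egr3 this does not show a difference between the tissues, and a p that misses the threshold does not show that they are alike.

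In blood the members also varied between libraries of a group. The SD between libraries of a group was 0.84 (log2) for Egr1 and 0.59 for Fos, at the 96.4th and 91.7th percentile of all rows, and 0.43 to 0.50 for Junb, Egr3 and Nr4a1, with a median of 0.20 over all rows. Among rows of like mean Fos, Egr1 and Nr4a1 were at the percentiles 96.9, 97.8 and 94.5, and Junb and Egr3 at 79.8 and 79.7. With group means removed, r over the 8 libraries was 0.90 between Fos and Egr1 and 0.65 between Junb and Nr4a1. The other 8 of the 10 pairs lay between -0.02 and 0.46.

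Lymphocyte markers moved with the score of the 5 members in blood, which ran from -1.20 in TBI 4 to 1.09 in TBI 1. Of 8 T cell markers 7 had r below -0.5 with it, Cd3e the lowest at -0.95 (101 FPKM in TBI 1, 160 in TBI 4), and all 5 tested B cell markers had r above 0.5, Blk the highest at 0.83. The T cell list summed to 774 to 1068 FPKM in sham and 762 to 1136 in TBI, and the B cell list to 635 to 833 and 411 to 774. No neutrophil marker of 8 passed 0.5 in either direction, and 2 of 7 monocyte markers were above it. The share of all genes beyond 0.5 was not counted in blood. Between the groups, injured blood was higher in all 6 natural killer cell markers and lower in all 4 tested platelet and all 4 tested red cell markers, and none of them passed. Over all rows 50.4% were lower. The groups were apart in all 4 platelet markers, 2 red cell markers and 1 natural killer cell marker, against 14.2% of all rows in either direction. Of the red cell markers that were not tested, the haemoglobin genes Hba1 and Hba2 are listed at 0 with the authors' status HIDATA in every blood library, and Hbb-b1 is so in every sham library and at 2496 to 5222 FPKM in TBI. The part of these in the members' values was not tested. Among 6633 other genes of at least 5 FPKM the nearest to the score were Chchd5 (r = 0.95), Rcan3 (0.95), a regulator of calcineurin, the exchange factor Vav2 (0.94, from 9.49 FPKM in TBI 4 to 24.5 in TBI 1), Ctbs (0.94), the Toll-like receptor inhibitor Irak3 (0.94), Tie1 (0.93), Abcd3 (0.93) and Uhrf2 (0.93). With group means removed Irak3 ranked 2, Chchd5 3 and Abcd3 17, the last of those named. Of all 6633, 131 exceeded 0.8 and 105 lay below -0.8.

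No related gene passed in blood either. Of the other AP-1 subunits 6 were tested, 5 of them higher, and Jun had a mean of 7.54 ± 2.10 FPKM (SD) in sham blood and 10.3 ± 0.686 after injury (log2 0.45, limma adjusted p = 0.181); Atf3 (1.74 and 1.21), Fosl2 (4.73 and 5.42) and Maff (2.39 and 2.45) followed. Of 27 tested activity genes 14 were higher and 13 lower, with a median of 0.01; Gadd45g, a DNA damage response gene, stood at 7.04 ± 0.953 and 3.74 ± 0.835 FPKM (-0.84, limma adjusted p = 0.127), Amigo3 at 1.20 and 1.80, Nfil3 at 11.1 and 8.50 and the kinase Pim1 at 175 and 132. Upstream, 28 genes were tested, 15 higher and 13 lower. The CREB coactivator Crtc1 stood at 4.64 ± 0.419 and 6.38 ± 0.573 FPKM (0.42, limma adjusted p = 0.127), and the ERK cascade kinases Map2k1 (41.1 and 34.3) and Map2k2 (111 and 91.6) were lower in TBI without passing. The EGR corepressor Nab1 had a mean of 14.5 ± 0.253 FPKM in sham blood and 10.9 ± 1.07 after injury (-0.41, limma adjusted p = 0.127). Its groups did not overlap, as in 14.2% of all rows in either direction. Hdac5 stood at 38.7 and 32.2 FPKM and Jdp2 at 2.67 and 3.28.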

How the data were processed

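RNA was sequenced from CA1 and white blood cells of sham and injured rats, 4 libraries per group. The deposited values are FPKM, 1 table per tissue; per the submitters' processing notes the authors used TopHat, TopHat2, Bowtie, Bowtie2, Cufflinks and Cuffdiff on rn5, while the sources used here give no versions, annotation or library-size setting. The authors' status stands beside each value (OK, FAIL or HIDATA). FPKM scales by length and library, so a few very abundant transcripts can shift all others.

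Rows with a mean of at least 1 FPKM over the 8 libraries of a tissue and every status OK were taken as log2(FPKM + 0.5) and tested by limma 3.58.1 in R 4.3.3 (trend, 2-sided, Benjamini-Hochberg over all rows, threshold 0.05). The members and lists were chosen with earlier results of these data known. Named genes are all members, the 4 listed genes of smallest p per list and tissue, and the 8 genes most correlated with the members' score; a few genes that this rule names are not reported here. The fits were tested on simulated data. Alternatives were other pseudocounts (0.1, 1), filters (none, 5 FPKM), scalings, variance models, a replicate block and the omission of each library; percentiles among rows of like mean, correlations without TBI 2 or sham 2 and the activity list without each library were added after the data were seen. Summaries used Python 3.11.15, numpy 2.4.6, pandas 2.3.3 and matplotlib 3.10.9.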

Additional observations from a re-analysis of the deposited data

Results flagged for a closer look

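Of 34 sets of 4 libraries (1 gene in 1 group), 5 held a library set apart from the rest. In these the gap, as a share of the group's range, exceeded Dixon's 95% critical value. The gaps were taken on FPKM and not on log2 values. Members vary together, so the sets are not independent and their count cannot be set against the 5% of sets that chance gives. In CA1 TBI 2 was that library for Egr2 (4.39 FPKM), Arc (50.8 FPKM) and Nr4a1 (27.7 FPKM), high in each. Sham 2 was that library for Egr1 (29.0 FPKM), and low. In white blood cells it was sham 3 for Egr4 (0.0421 FPKM), where the other sham libraries are listed at 0, so that any value above 0 exceeds that limit. Of the 5 members with a test of the injury effect between tissues, none passed.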

How the results depend on the processing

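None of the 9 members tested in CA1, nor of the 5 tested in blood and between tissues, was called under any alternative run for it or without any library. In CA1 Egr3 and Nr4a1 were lower and Npas4 higher in each of these; Npas4 and Egr2 in CA1, and Egr3 in blood and between tissues, have no value at a minimum of 5 FPKM. Signs turned for Egr2 with a pseudocount of 0.1 (-0.047), for Arc with sample weights (0.013) and for Fos in blood with quantile normalization (0.13) or sample weights (0.065). Without single libraries, ranges that cross 0 were, in CA1, Fos -0.56 to 0.12, Junb -0.064 to 0.23, Egr1 -0.28 to 0.090, Egr2 -0.47 to 0.31, Egr4 -0.20 to 0.21 and Arc -0.24 to 0.18; in blood, Fos -0.23 to 0.27, Egr1 -0.46 to 0.22, Egr3 -0.21 to 0.14 and Nr4a1 -0.11 to 0.31; and between tissues, Fos -0.12 to 0.55 and Egr1 -0.43 to 0.26.

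Rows called over the whole of CA1 (1 higher, 0 lower) became 2 higher and 1 lower without the trend or with sample weights and 1 lower with quantile normalization, and without single libraries 1 to 2 higher and 0 to 1 lower. In blood (0 and 0) they were 0 to 1 higher and 0 to 3 lower without single libraries. Between tissues 4 higher and 27 lower became 2 and 11 with no filter, 1 higher at a minimum of 5 FPKM, 12 and 15 with quantile normalization, 70 and 211 with sample weights, and 1 to 26 and 5 to 201 without single libraries. The cause was not tested. The median percentile of spread in blood, 87.6, was 94.5 among rows of like mean, where Junb and Egr3 were lower (79.8 and 79.7) than among all rows (82.9 and 86.2).

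With equal label numbers as a replicate block, calls between tissues were 0 higher and 3 lower. The labels do not say that numbers mark shared rats; deviations of equal numbers in CA1 and blood correlated at 0.05 to 0.20, and 16 of 16 libraries correlated best with their own number. Sham and TBI of equal number correlated at 0.02 to 0.24 in CA1 and -0.01 to 0.15 in blood. Quantile normalization moved the share of lower rows at an unadjusted p under 0.05 in blood from 61.5 to 43.5%. The numbers of fragments are not in the tables, so no counting interval is given for the members of low level.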
